A study of Mus musculus with 1600 samples.

Results

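The cytosolic ribosomal protein genes encode the protein part of the cell's ribosomes. They were taken here as the protein-coding rows whose GENCODE symbol is Rpl or Rps with a number and at most a short suffix, together with Rplp0, Rplp1, Rplp2 and Rpsa, and without the Rps6k kinases. This rule used no measured value and gave 83 genes of 45792 rows, of which 21596 were protein-coding. Of the 83, 80 passed the filter on low counts in every comparison, 48 of the large and 32 of the small ribosomal subunit. The other members were Rpl3l, Rpl10l and Rpl39l, duplicate genes known from muscle or testis: Rpl3l had at least 1 read in 0.782% of the wells used, and Rpl10l and Rpl39l in none.

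The study measured RNA in single wells of a microfluidic array, the Fluidigm C1, loaded with cells from kidney glomeruli, the filtering capillary tufts. All mice were deficient for endothelial nitric oxide synthase (eNOS-/-, the gene Nos3) on a C57BL/6 background, so no group had the functional enzyme. To induce diabetes, mice aged 8 weeks were injected with streptozotocin, which kills pancreatic beta cells, in 5 daily doses of 50 µg per g of body weight. Control mice had received the citrate vehicle. Glomeruli were taken at 10 weeks, and cells of 3 mice were pooled per condition in each of 2 experiments, so the replicates were 2 control pools and 2 diabetes pools. Each experiment was 1 array that held both conditions, and replicate 1 and replicate 2 below are the pools of experiments 1 and 2. The submitters describe the control mice as matched for age and sex. In the sums over all used wells, however, Xist, the RNA of the inactive X chromosome, stood at 356 and 442 CPM (counts scaled to 1000000 reads) in the control pools and at 1.49 and 1.40 CPM in the diabetes pools. The summed level of 4 Y-linked genes was 0.210 and 0.599 CPM in the control pools and 154 and 160 CPM in the diabetes pools. Condition and sex-linked expression therefore cannot be told apart in any diabetes comparison here.

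Ribosomal proteins assemble with ribosomal RNA into a small subunit, which decodes the messenger RNA, and a large subunit, which forms the peptide bond. Their messenger RNAs are among the most abundant of most cells. Many of them begin with a C followed by a run of pyrimidines, the 5′ terminal oligopyrimidine (TOP) tract, through which growth signals acting on mTOR control their translation. Translation was not measured in this study, and the values below are RNA levels.

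Of 833 wells imaged with a single cell, 639 were used: those with reads on 500 genes or more and with no more than 30% of reads on mitochondrial genes. The control pools gave 120 and 203 of them and the diabetes pools 128 and 188. The median depth per well was 32222 and 219072 reads in the control pools and 43577 and 176715 reads in the diabetes pools, so experiment 2 was sequenced several times more deeply. Clustering without the ribosomal protein genes gave classes named from marker genes. In the order control replicates 1 and 2, diabetes replicates 1 and 2, there were 55, 95, 84 and 114 endothelial-like wells. Mesangial-like wells, which resemble the contractile cells that hold the capillary loops, numbered 29, 67, 8 and 21. Podocyte-like wells, which resemble the epithelial cells of the filter, numbered 23, 30, 1 and 15. Immune-like wells, led by Lyz2, Fcer1g and Tyrobp, numbered 5, 4, 26 and 34. The defining markers were mostly present in their own class. The 12 endothelial markers summed to 20753 to 26522 CPM in endothelial-like sums. The 13 immune markers summed to 12425 to 59327 CPM in immune-like sums, with 3 of them at 0 in control replicate 2. The 10 mesangial markers summed to 5695 to 17372 CPM in mesangial-like sums. In diabetes replicate 1, where they were at 5695 CPM, 6 fibroblast markers summed to 13952 CPM.

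Stretches around the annotated start of 6 members are shown, since the start is where a TOP tract lies: the 3 members called in immune-like wells below, and 3 members whose window holds the searched letters. Each runs 5′ to 3′ on the gene's strand, from 10 bases before the start to the 20 bases from it, as given by RefSeq on GRCm38.p6. Capitals mark CTTTT or CTTTC. The windows are Rpsa chr9:120127756-120127785 (+), Rplp0 chr5:115559457-115559486 (+), Rps9 chr7:3704031-3704060 (+), Rps12 chr10:23787190-23787219 (-), Rps6 chr4:86857348-86857377 (-) and Rps27 chr3:90213629-90213658 (-).
Rpsa: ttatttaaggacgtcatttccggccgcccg
Rplp0: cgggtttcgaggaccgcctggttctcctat
Rps9: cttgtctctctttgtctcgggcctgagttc
Rps12: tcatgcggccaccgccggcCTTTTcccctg
Rps6: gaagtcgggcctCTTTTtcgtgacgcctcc
Rps27: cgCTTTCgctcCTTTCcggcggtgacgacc
Of the 63 members with an entry in the RefSeq table, 18 (28.6%) had CTTTT or CTTTC in this window on the gene's strand, against 2101 of 27025 genes in the table (7.77%). On the other strand the letters stood in 4 members (6.35%) and in 7.29% of all genes. Only these exact strings were searched, so other pyrimidine runs, such as the one across the start of Rps9, were not counted. A match anywhere in the window was counted, also before the start, where the first capitals of Rps27 lie. A match describes the letters, does not place a TOP tract and is not a test of translation control.

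The members differed widely in level. Divided by transcript length, the mean level over the 4 pools in all used wells ran from 24.6 CPM per kb for Rpl7l1 to 7293 CPM per kb for Rps27, a small-subunit protein with a zinc finger. Rplp1, an acidic protein of the stalk that binds elongation factors, came next at 3093 CPM per kb, followed by Rps14 at 2412 and Rpl41, the smallest ribosomal protein, at 2243 CPM per kb. The lowest after Rpl7l1 were Rpl24 at 78.9, Rpl15 at 83.1 and Rpl22 at 99.4 CPM per kb. Among duplicate genes, Rpl7l1 stood below its partner, at 24.6 against 691 CPM per kb for Rpl7, and so did Rps27l, at 578 against 7293 CPM per kb for Rps27. The pair Rpl22 and Rpl22l1 went the other way, at 99.4 and 218 CPM per kb. Before division by length, Rpl22 stood at 147, 176, 267 and 225 CPM in control replicates 1 and 2 and diabetes replicates 1 and 2. Rpl22l1 stood at 187, 84.4, 127 and 82.9 CPM in the same order, higher than Rpl22 only in control replicate 1. The order within this pair therefore rested on the length used. Ribosomal protein genes have many processed pseudogenes, and the treatment of reads that fit several copies was not given in the sources used here. Of the values above 0, 78.8% were fractions among members in experiment 1 and 76.3% in experiment 2, against 16.8% and 12.6% in other protein-coding genes. Rps6, the ribosomal protein phosphorylated by S6 kinases, had a fraction in 99.5% and 98.4% of its values, while Rps27l had one in 37.8% and 23.3%. The whole parts alone kept 98.9% and 99.8% of the members' reads, and 262 named pseudogene rows held 0.538% and 0.418% of all reads against 4.86% and 5.37% in the members. Levels of single members are therefore uncertain by what the pseudogene copies took or gave.

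The order of the members was much the same in every class. Across the 80 members, the Spearman correlation between 2 pool sums had a median of 0.845 for the same class in the same experiment, 0.774 for the same class in different experiments, 0.831 for different classes in the same experiment and 0.747 where both differed. These describe genes of shared libraries and carry no test. The medians were thus lower between experiments than between classes. Both pools of experiment 2 stood above both pools of experiment 1 for 28 of 80 members in all used wells, against 16.3% of the 9652 genes with a mean of at least 10 CPM, and both stood below for 9 members, against 25.3% of genes. Rpl29, a small basic protein of the large subunit, was 5.32 times as high in experiment 2 as in experiment 1 among control pools and 1.96 times among diabetes pools. Rpl22l1 was at 0.413 and 0.563 times, and Rpl39 at 0.516 and 0.468 times. The main diabetes fits below therefore took the experiment as a block. Diabetes fits without the block or with 1 pool left out, and counts of groups that did not overlap, also compared pools across experiments.

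The share of a well's reads that fell on the members was highest in immune-like wells of 3 of the 4 pools. The median share over endothelial-like wells was 3.82% and 5.96% in control replicates 1 and 2 and 3.56% and 5.38% in diabetes replicates 1 and 2. In immune-like wells it was 9.64%, 7.72%, 8.20% and 3.59% in the same order of pools. The immune-like wells of diabetes replicate 2 were the exception: their median lay below that of endothelial-like wells, although the share of their summed reads, 6.68%, lay above the 5.76% of endothelial-like wells. These wells also had more mitochondrial reads (median 18.6%, against 8.57% in diabetes replicate 1), a lower sum of immune markers (12425 against 59327 CPM) and a higher sum of endothelial markers (2324 against 309 CPM). Their 4 globin genes summed to 24507 CPM, against 0 to 2.04 CPM in the other immune-like sums. The part of these differences in the share was not tested. With mitochondrial reads at most 15%, the 12 immune-like wells left in diabetes replicate 2 had a median share of 6.77%.

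**Figure D1:**
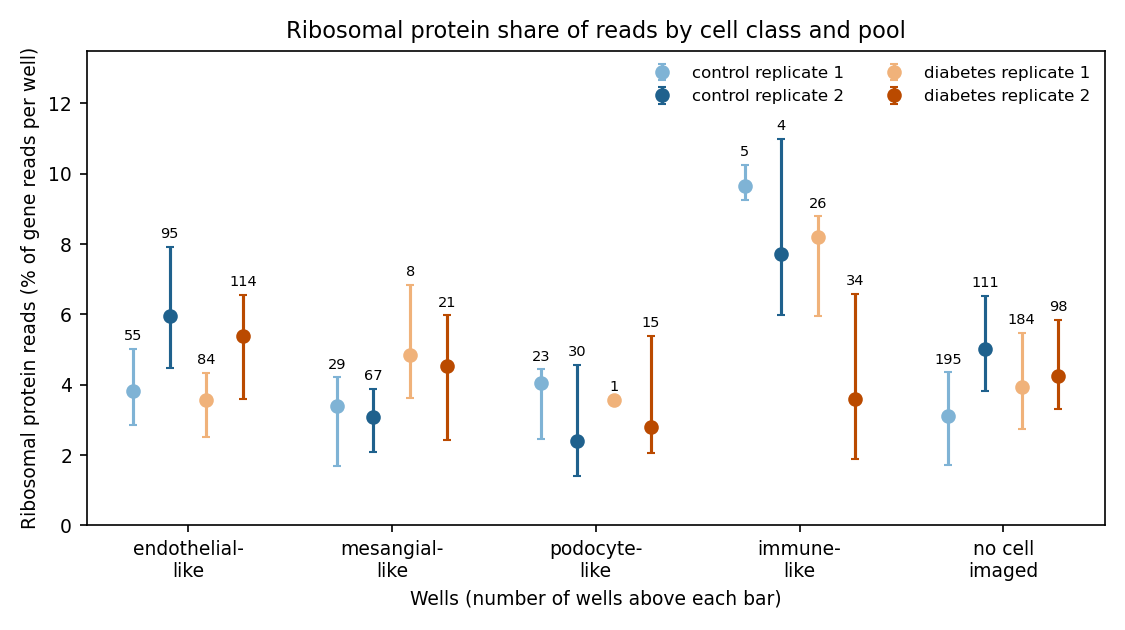
Ribosomal protein reads as a percentage of all gene reads per well, by cell class and pool, on a linear axis. Points are medians over wells, bars run from the first to the third quartile over wells, and the number of wells stands above each bar; the immune-like medians of 9.64%, 7.72% and 8.20% lie above all others, and that of diabetes replicate 2, at 3.59%, does not.

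Mesangial-like wells had a median share of 3.39% and 3.08% in the control pools and 4.85% and 4.53% in the diabetes pools, so the groups did not overlap. Podocyte-like wells had 4.06%, 2.41% and 2.79% in control replicates 1 and 2 and diabetes replicate 2, and the single well of diabetes replicate 1 had 3.56%. No share was tested, because the smallest p that an exact permutation test (2-sided) of 2 pools against 2 allows is 0.33. In the 11 sums of 21 to 114 wells, the share of a well had a Spearman correlation with its mitochondrial percentage between -0.645 and -0.184. Its correlation with the number of genes detected lay between 0.227 and 0.581, and that with the total reads between 0.0372 and 0.609. These are descriptions over wells of shared libraries. Wells in which no cell had been imaged had a share close to that of cells, with a median of 3.10%, 5.00%, 3.93% and 4.25%, so the share alone did not tell empty from used wells. The amount differed: in experiment 1, where spike-in RNA was counted, the median was 0.00410 and 0.00705 ribosomal protein reads per spike-in read in empty control and diabetes wells, against 0.148 and 0.201 in used wells.

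Against endothelial-like wells of the same pools, immune-like wells had higher levels of most members. Rpsa, Rplp0 and Rps9 were called higher, and the log2 fold change was positive in 77 of 80 members. Rpsa, a small-subunit protein also known as the laminin receptor, stood at 3421, 2790 and 3088 CPM in the immune-like sums of control replicate 1, diabetes replicate 1 and diabetes replicate 2. In endothelial-like sums it was at 902, 1273, 862 and 1112 CPM in control replicates 1 and 2 and diabetes replicates 1 and 2, so the classes did not overlap. Its log2 fold change was 1.62 (SE 0.34, adjusted p = 0.0096, edgeR quasi-likelihood test with Benjamini-Hochberg adjustment over 12851 genes). Rplp0, the anchor of the ribosomal stalk, stood at 1321, 1275 and 2684 CPM in the immune-like sums. Its endothelial-like sums were lower throughout, at 371, 918, 398 and 809 CPM, with a log2 fold change of 1.63 (SE 0.39, edgeR adjusted p = 0.0211). Rps9, a small-subunit protein at the entry of the messenger RNA, stood at 910, 1108 and 1432 CPM in immune-like sums and at 292, 614, 365 and 560 CPM in endothelial-like sums. Its log2 fold change was 1.47 (SE 0.40, edgeR adjusted p = 0.0482). Of 12 alternative settings, Rps9 passed in 3, Rplp0 in 9 and Rpsa in 10, and the highest edgeR adjusted p of Rps9 over these settings was 0.234. The immune-like sum of control replicate 2 was not used because it held 4 wells, below the minimum of 5.

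**Figure D2:**
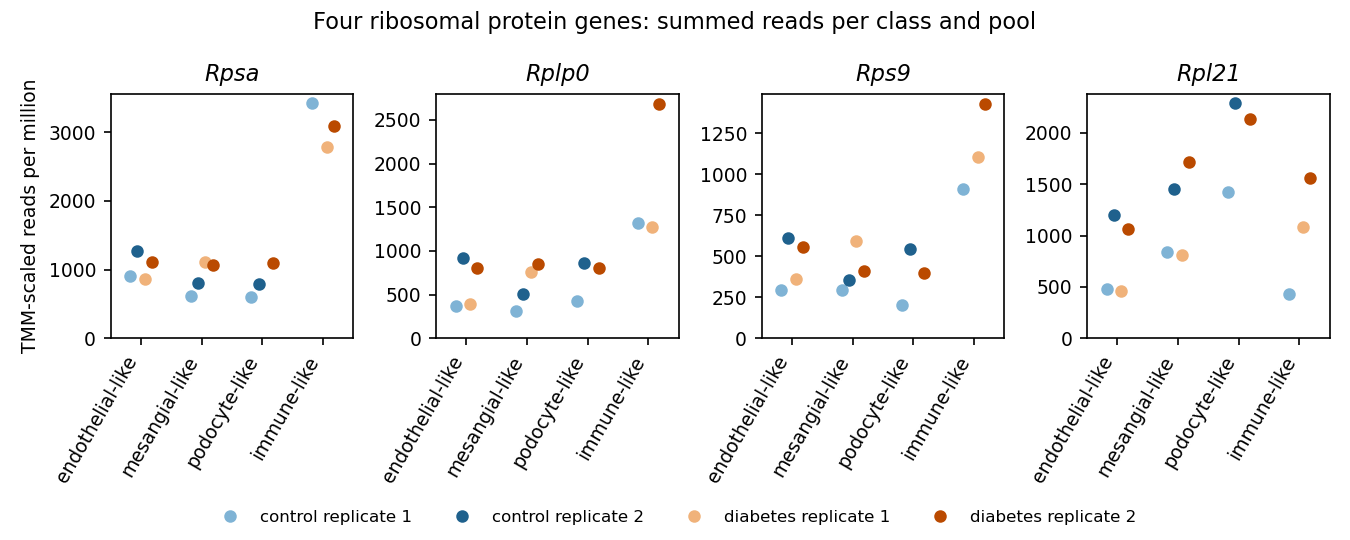
Level of Rpsa, Rplp0, Rps9 and Rpl21 in TMM-scaled CPM, on linear axes from 0, with 1 point per class and pool. Every immune-like point of Rpsa, Rplp0 and Rps9 lies above every endothelial-like point, and for Rpl21 the podocyte-like points, at 1421 to 2290 CPM, lie highest.

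The 3 members called, of 80, stand beside 2.13% of all 12851 genes called higher and 4.26% called in either direction, so the called share was near the background. The median log2 fold change of the members was 0.78 while that of all genes tested was -0.53. Every immune-like sum lay above every endothelial-like sum for 29 of 80 members, against 6.39% of the 9217 genes with a mean of at least 10 CPM, and below for none, against 22.6%. Within pools, 76 of 80 members were higher in immune-like wells of control replicate 1, 79 in diabetes replicate 1 and 54 in diabetes replicate 2, while 28.9%, 42.5% and 34.9% of all genes were. In all 3 pools 50 members were higher, against 11.3% of genes, and none was lower, against 36%. DESeq2 called 16 members and edgeR with RLE scaling 10. The shares of all genes called given above belong to the main fit, so these counts stand without a background. Without control replicate 1 or without diabetes replicate 1 no member was called, and without diabetes replicate 2 only Rpsa was. The immune-like sum of control replicate 1 held 5 wells, and 1 well gave 30.8% of its Rpsa reads and 45.4% of its Rplp0 reads.

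The other stalk proteins did not pass the test in this comparison. Rplp2 was at 1941, 1606 and 1735 CPM in immune-like sums and at 606 to 921 CPM in endothelial-like sums, higher in each of the 3 pools but with an edgeR adjusted p = 0.0888. Rplp1 had 0.57 (SE 0.37). Rps28, Rpl17, Rps27a and Rps29 had log2 fold changes from 1.26 to 1.39 with edgeR adjusted p between 0.0569 and 0.0738. Rps27a, made as a fusion of ubiquitin with a small-subunit protein, stood at 1561, 1832 and 2340 CPM in immune-like and at 440 to 1108 CPM in endothelial-like sums. Fau, a gene of the same kind whose ubiquitin-like part is joined to a small-subunit protein and whose symbol lies outside the rule, was called higher, with 1010, 912 and 2507 CPM in immune-like sums. Its endothelial-like sums were 403, 1007, 295 and 1008 CPM, so the classes overlapped, and its log2 fold change was 1.37 (SE 0.35, edgeR adjusted p = 0.0318). The lowest members were Rpl7l1 at -0.68 (SE 0.89), Rps27l at -0.24 (SE 0.59) and Rpl29 at -0.02 (SE 0.48), and Rps27l and Rpl7l1 are duplicate genes. Their partners were at 0.50 (SE 0.27) for Rps27 and 0.55 (SE 0.37) for Rpl7, and the difference between partners was not tested. The median log2 fold change was 0.70 over large-subunit and 0.92 over small-subunit members.

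Podocyte-like wells had no member called against endothelial-like wells, and 3.49% of all genes were called. DESeq2 called 1 member, Rpl21. The log2 fold change was positive in 13 of 80 members, with a median of -0.29 beside -0.38 over all genes tested. Without control replicate 2 it was positive in 30 members (median -0.12), without diabetes replicate 2 in 33 (median -0.06), and with mitochondrial reads at most 15% in 34 (median -0.06). Rpl21, a large-subunit protein, had the highest value. It stood at 1421, 2290 and 2135 CPM in the podocyte-like sums of control replicates 1 and 2 and diabetes replicate 2, and at 475, 1204, 460 and 1067 CPM in endothelial-like sums. The classes did not overlap, which was so upward for no other member and for 8.44% of 9134 genes. It was also the 1 member higher in each of the 3 pools, against 14.7% of genes. In the other direction, 44 members were lower in each of the 3 pools, against 29.7% of genes, and 15 had every podocyte-like sum below every endothelial-like sum, against 17% of genes. Its log2 fold change was 1.28 (SE 0.35, edgeR adjusted p = 0.0521), and it passed the threshold in 5 of 14 alternative settings. Rpl21 was also the only member higher than in endothelial-like wells of the same pool in all 4 mesangial-like sums, against 11% of genes with a mean of at least 10 CPM, with a log2 fold change of 0.64 (SE 0.32, edgeR adjusted p = 0.377) there. At the other end, Rpl12, which forms the base of the stalk, stood at 142, 109 and 214 CPM in podocyte-like and at 234 to 443 CPM in endothelial-like sums. Its log2 fold change was -1.22 (SE 0.47, edgeR adjusted p = 0.170). Rpl15 had -0.98 (SE 0.61) and Rpl8 had -0.93 (SE 0.36), and Rpl10 and Rps3a1 were the highest after Rpl21 at 0.49 (SE 0.43) and 0.40 (SE 0.43).

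Mesangial-like wells likewise had no member called against endothelial-like wells, where 3.97% of all genes were called, and DESeq2 called no member. The log2 fold change was positive in 15 of 80 members, with a median of -0.16 beside -0.24 over all genes. Without control replicate 2 the members' direction turned, with 44 positive and a median of 0.02. Without diabetes replicate 1 there were 11 positive with a median of -0.30, and without diabetes replicate 2 there were 24 with a median of -0.12. RLE scaling gave 27 positive members, a median of -0.06 over members and a shift of all genes to -0.15. The pools did not go one way. Within pools 28 members were higher than in endothelial-like wells in control replicate 1, 2 in control replicate 2, 72 in diabetes replicate 1 and 17 in diabetes replicate 2, while between 42.5% and 48.4% of all genes were. Rpl7a and Rps10 were lower in all 4 pools, against 16.6% of genes. For no member did the mesangial-like sums lie all above (5.89% of genes) or all below (8.78% of genes) the endothelial-like sums. Rps3, a small-subunit protein also known for a role in DNA repair, had the lowest value, at -0.94 (SE 0.39, edgeR adjusted p = 0.223). It stood at 216, 341, 662 and 346 CPM in mesangial-like sums and at 577, 707, 543 and 1091 CPM in endothelial-like sums, in the usual order of pools. Rps18 and Rps20 followed at -0.64 (SE 0.37) and -0.57 (SE 0.36), and Rps3a1 and Rps16 stood at the upper end after Rpl21, at 0.41 (SE 0.40) and 0.40 (SE 0.40).

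**Figure D3:**
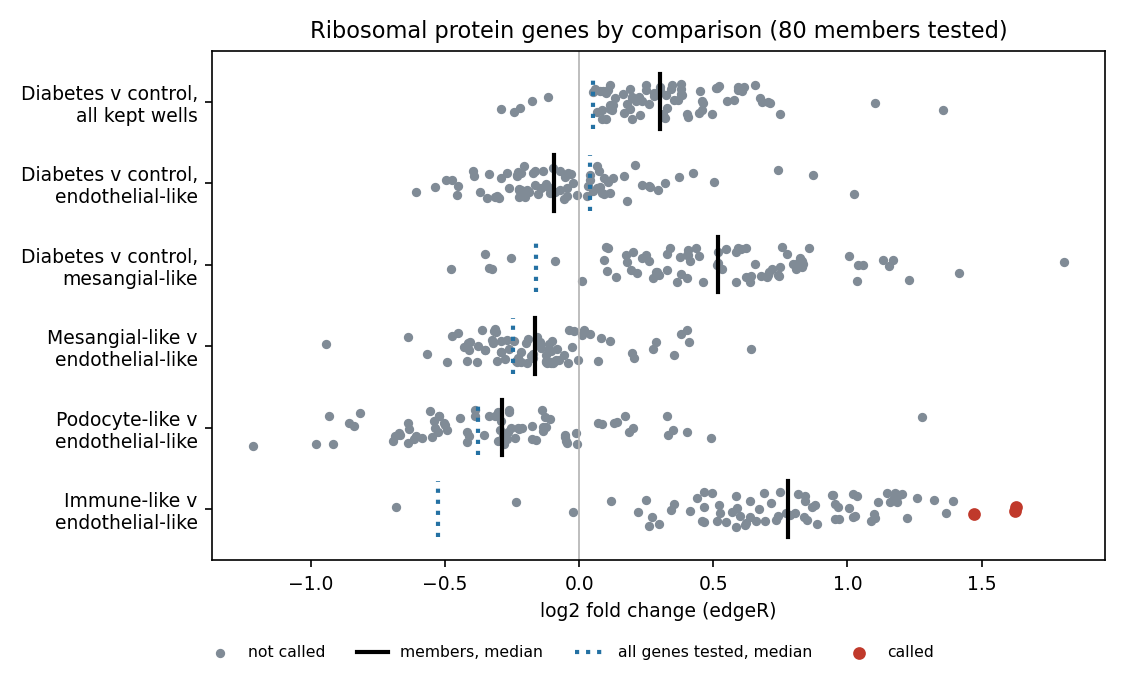
Log2 fold change (edgeR) of the 80 members tested in 6 comparisons, with 1 point per gene. The solid line is the median of the members and the dotted line that of all genes tested; the lines lie farthest apart in immune-like against endothelial-like wells (0.78 and -0.53) and in diabetes against control in mesangial-like wells (0.52 and -0.16), and the points called are Rpsa, Rplp0 and Rps9.

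The design asks how glomerular cells of diabetic mice differ from those of control mice. Over all used wells no member was called, 0.0783% of 15330 genes were called, and DESeq2 called 1 member, Rpl34. The log2 fold change was positive in 75 of 80 members, with a median of 0.30 beside 0.05 over all genes. Within experiment 1, 66 members were higher in diabetes (median log2 difference 0.39, all genes -0.02). Within experiment 2, 56 were (median 0.13, all genes -0.10). Fits with 1 pool left out had no experiment block, so they also compared pools across experiments. Without control replicate 1 there were 56 positive members with a median of 0.09, below the 0.12 of all genes. Without diabetes replicate 2 there were 53 with a median of 0.15, and without control replicate 2 the median was 0.53. Rpl34, a large-subunit protein, stood at 167 and 337 CPM in the control pools and at 530 and 695 CPM in the diabetes pools, so the groups did not overlap. Its log2 fold change was 1.35 (SE 0.30, edgeR adjusted p = 0.325), and DESeq2 gave an adjusted p of 0.00357. Rps2, a small-subunit protein known for its part in decoding accuracy, was at 133 and 304 CPM in the control pools and at 449 and 416 CPM in the diabetes pools (log2 fold change 1.10, SE 0.39). Rpl11, which binds Mdm2 together with Rpl5 when ribosome assembly is disturbed, followed at 0.75 (SE 0.36), with 193 and 517 CPM in the control pools and 483 and 583 CPM in the diabetes pools, so its groups overlapped. The lowest values were those of Rpl22l1 (-0.29, SE 0.34), Rpl26 (-0.24, SE 0.30) and Rpl21 (-0.22, SE 0.25). Both diabetes pools lay above both control pools for 33 of 80 members, against 13.9% of 9652 genes. Within experiments, 48 members were higher in diabetes in both, against 24.2% of genes, and 6 lower in both, against 32.1%. In these sums a change in the mixture of cells and a change of RNA within cells cannot be told apart. Immune-like wells, which had the higher levels, were 4.17% and 1.97% of used wells in the control pools and 20.3% and 18.1% in the diabetes pools.

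Within endothelial-like wells no member was called, 0.0304% of 13156 genes were called, and DESeq2 called no member. The log2 fold change was positive in 29 of 80 members, with a median of -0.09 beside 0.04 over all genes. Within experiment 1, 29 members were higher in diabetes, and within experiment 2, 22 were. In both experiments 39 were lower, against 27.4% of the 8945 genes with a mean of at least 10 CPM, and 10 higher, against 23.4%. Both diabetes pools lay above both control pools for 3 members, against 14% of genes. The median log2 difference was -0.10 within experiment 1 (all genes 0) and -0.15 within experiment 2 (all genes -0.08). Leaving out 1 pool gave medians between -0.50 and 0.39. Those fits had no experiment block and also compared pools across experiments, so they cannot show whether the sign rested on single pools. Rpl34 was again the highest, at 146 and 427 CPM in control and 376 and 691 CPM in diabetes pools, higher in both experiments but with overlapping groups (log2 fold change 1.03, SE 0.31, edgeR adjusted p = 1). Rpl7l1 followed with 0.87 (SE 0.57) and Rpl29 with 0.74 (SE 0.41). Rpl29 was at 64.1 and 467 CPM in the control pools and at 182 and 470 CPM in the diabetes pools, so its difference came from experiment 1. The lowest were Rpl22l1 at -0.61 (SE 0.47), Rpl26 at -0.54 (SE 0.28) and Rpl7 at -0.49 (SE 0.28). The globin genes summed to 11810 CPM in the endothelial-like wells of diabetes replicate 1 and to 0 to 30.8 CPM in the other endothelial-like sums. Markers of other cell types moved with the comparison as well. All 13 immune markers had positive log2 fold changes and summed to 132 and 102 CPM in control and to 512 and 319 CPM in diabetes pools. All 10 mesangial markers were negative, with sums of 688 and 538 against 152 and 470 CPM, and 11 of 12 podocyte markers were, with sums of 1747 and 1281 against 1425 and 1067 CPM. The part of these markers and of the globin genes in the result was not tested.

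Within mesangial-like wells the levels of most members were higher in diabetes, without a member passing the test. Among all genes, 0.187% of 10694 were called, and DESeq2 called no member. The log2 fold change was positive in 74 of 80 members, with a median of 0.52 beside -0.16 over all genes, and in all 32 members of the small subunit. Within experiment 1, 71 members were higher in diabetes (median log2 difference 0.66, all genes -0.13), and within experiment 2, 63 were (median 0.36, all genes -0.07). Members higher in both experiments numbered 57, against 22.6% of 9066 genes, and members lower in both 3, against 28.8%, while both diabetes pools lay above both control pools for 36 members, against 13.7% of genes. Leaving out 1 pool gave medians between 0.43 and 0.66. Those fits had no experiment block and also compared pools across experiments, so they cannot show whether the result rested on single pools. The spread in the main fit of mesangial-like wells was shared across genes with 92 prior degrees of freedom. A gene's own spread between pools therefore hardly entered its p.

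Rps2 had the highest value in mesangial-like wells. It stood at 84.8 and 212 CPM in control replicates 1 and 2 and at 489 and 457 CPM in diabetes replicates 1 and 2, so the groups did not overlap (log2 fold change 1.81, SE 0.60, edgeR adjusted p = 0.495). Rpl34 stood at 196 and 247 CPM in control and at 679 and 510 CPM in diabetes pools (1.42, SE 0.53, edgeR adjusted p = 0.815). Rps12, a small-subunit protein known from cell competition in flies, stood at 337 and 414 CPM in control and at 1119 and 689 CPM in diabetes pools (1.23, SE 0.48, edgeR adjusted p = 0.840). All 3 were higher in diabetes in both experiments and in both diabetes pools than in both control pools. Rpl11 was at 151 and 348 CPM in the control pools and at 538 and 496 CPM in the diabetes pools, and Rpl5 was at 366 and 328 against 372 and 563 CPM. The lowest members were Rpl22l1 at -0.48 (SE 0.95), Rpl36 at -0.35 (SE 0.49) and Rpl14 at -0.34 (SE 0.47). Rpl22l1 was at 307 and 42.1 CPM in the control pools and at 77.5 and 84.0 CPM in the diabetes pools, lower in experiment 1 and higher in experiment 2.

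**Figure D4:**
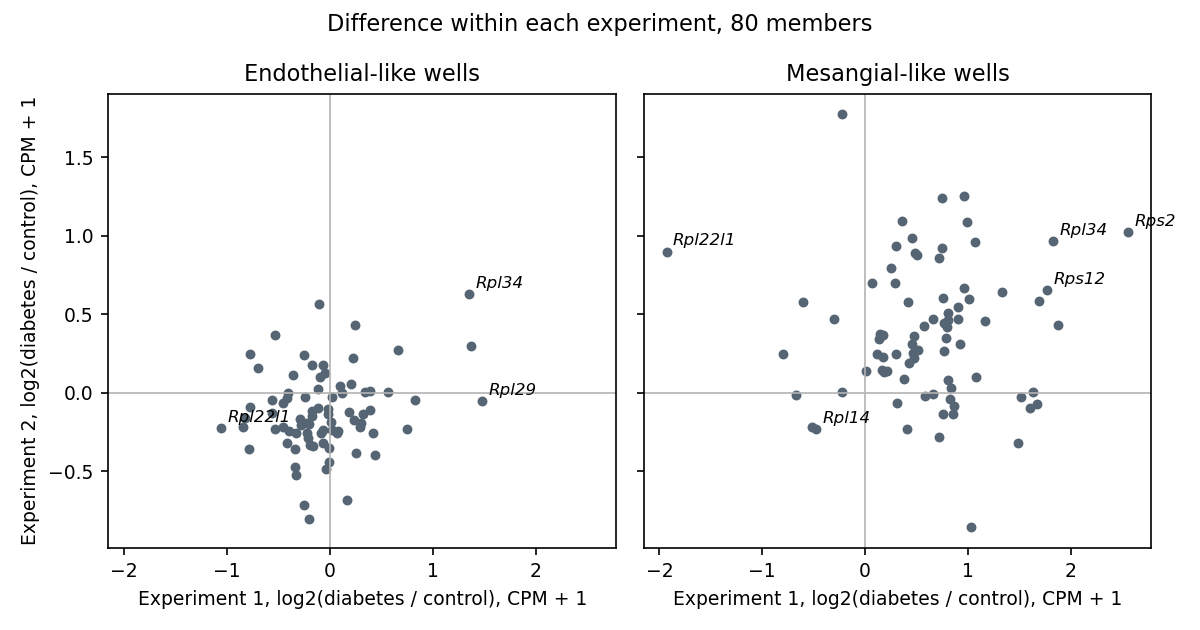
Log2 ratio of diabetes to control for 80 members within experiment 1 (horizontal axis) and experiment 2 (vertical axis), from CPM plus 1, in endothelial-like and mesangial-like wells. Of the mesangial-like points 57 lie above 0 on both axes and 3 below 0 on both, and of the endothelial-like points 10 lie above and 39 below.

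The diabetes pools held few mesangial-like wells, 8 and 21, and these were deeper than in control, with a median of 83493 reads against 27391 in experiment 1 and 238655 against 177408 in experiment 2. After thinning each well to 10000 reads no member was called and the alternatives other than leaving out a pool kept the members' median between 0.49 and 0.59. The marker sums moved too. The 10 mesangial markers summed to 17372 and 14229 CPM in control and to 5695 and 10014 CPM in diabetes pools, 7 smooth muscle and renin markers to 425 and 365 against 848 and 2181 CPM, and 6 fibroblast markers to 5062 and 1313 against 13952 and 1563 CPM. In the fit, 1 of the 10 mesangial markers had a positive log2 fold change, and 2 were called lower. All 5 tested smooth muscle and renin markers were positive, and 1 was called higher. Of 5 tested fibroblast markers 3 were positive, without a call. Among all 10694 genes, 20 were called (0.187%). None of the mesangial markers was at 0 in any of these sums. The part of these marker changes in the result was not tested. The spike-in reads of experiment 1 gave a median of 0.131 ribosomal protein reads per spike-in read in mesangial-like control wells and 0.566 in diabetes wells, where all gene reads per spike-in read were also higher (3.00 and 8.27). In endothelial-like wells of experiment 1 the values were 0.145 and 0.143.

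Whether the diabetes effect differed between mesangial-like and endothelial-like wells was tested by an interaction term. No gene of 11090 was called by edgeR (0%), 402 genes and no member had an unadjusted p under 0.05, and DESeq2 called 33 genes and no member. The interaction estimate was positive, that is, higher in mesangial-like wells, in 73 of 80 members, with a median of 0.56 on the log2 scale beside -0.24 over all genes. Its size rested on single pools: the median was 0.31 without control replicate 2 and 0.19 without diabetes replicate 1, and 0.97 and 1.01 without control replicate 1 and diabetes replicate 2. The highest estimates were those of Rps2 (1.47, SE 0.74), Rpl36a (1.46, SE 0.79) and Rps12 (1.43, SE 0.70), and the lowest that of Rpl29 (-0.47, SE 0.76). Immune-like wells were not tested between conditions, because control replicate 2 held only 4 of them.

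The X-linked members lay within the range of the others in the diabetes comparisons, which cannot tell condition and sex-linked expression apart. In endothelial-like wells Rps4x was at 817 and 2102 CPM in the control pools and at 834 and 1867 CPM in the diabetes pools, a log2 fold change of -0.07 (SE 0.23). Rpl10 and Rpl39 had -0.05 (SE 0.27) and -0.04 (SE 0.30), and Rpl36a had -0.34 (SE 0.28). In mesangial-like wells the values were 0.62 (SE 0.40) for Rps4x, 0.81 (SE 0.49) for Rpl10, 0.75 (SE 0.56) for Rpl39 and 1.13 (SE 0.55) for Rpl36a. None was called.

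Other genes of protein synthesis, from fixed lists, showed few calls in any comparison. In diabetes against control within mesangial-like wells, 7 tested translation elongation factors had 6 positive values and a median log2 fold change of 0.62, with Eef1b2 highest at 1.29 (SE 0.61) and Eif5a lowest at -0.41 (SE 0.93). The 28 initiation factors had 12 positive values and a median of -0.08, and the 28 tested ribosome biogenesis genes 15 positive values and a median of 0.14. The 76 tested mitochondrial ribosomal proteins, which serve the separate ribosomes of mitochondria, had 37 positive values and a median of -0.02. None of these was called. In immune-like against endothelial-like wells the elongation factors had a median of 0.44 with 6 of 8 positive, the initiation factors 0.06 with 14 of 28 positive, and the mitochondrial ribosomal proteins -0.25 with 31 of 77 positive, again with no call. Rack1, the scaffold protein on the head of the small subunit, whose symbol also lies outside the rule, stood at 1095, 1076 and 1312 CPM in immune-like sums and at 601, 810, 499 and 815 CPM in endothelial-like sums. The classes did not overlap, but its log2 fold change of 0.93 (SE 0.40, edgeR adjusted p = 0.237) did not pass. The called genes of these lists outside Fau were Eif3m, a subunit of initiation factor 3, higher in podocyte-like wells (log2 fold change 3.32, SE 0.61, edgeR adjusted p = 0.00556), Cdkn1a, the p53 target that halts the cell cycle, lower there (-4.78, SE 1.06, edgeR adjusted p = 0.0198), and Rps6ka1, a kinase of the S6 kinase family, lower in mesangial-like wells (-7.43, SE 1.54, edgeR adjusted p = 0.0111). Rps6ka1 was at 4.24 to 41.6 CPM in endothelial-like sums and at 0 to 0.0718 CPM in mesangial-like sums, so its fitted value depends on the prior count.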

How the data were processed

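The deposited gene tables, 1 per experiment, hold expected counts: read numbers for each gene in each well, fractions included, which the authors made with featureCounts 1.5.1, BWA 0.7.17-r1188, STAR 2.4.2a and cutadapt 1.11 on mm10, per the submitters' processing notes. The role of each tool, the treatment of reads that fit several genes and the use of strand were not given in the sources used here. The deposited spike-in table holds counts of reads for experiment 1 only. Reads carried no molecular identifiers, so counting error is a lower limit on the error. All 1600 wells were in the tables, and no column was left unmapped. Symbols came from GENCODE M21, which matched 45229 of 45792 identifiers.

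Used wells were normalized to log2(counts per 10000 + 1) and clustered without ribosomal protein genes, their pseudogenes and mitochondrial genes (scanpy 1.11.5: 2000 variable genes scaled within experiment, 15 components, 15 neighbours, Leiden resolution 0.8). A cluster was named where at least 3 markers were detected and 1 led it. Doublets were handled through the imaged cell number, without a caller. Wells were not treated as replicates: expected counts were summed per pool and class, rounded and tested with edgeR 4.0.16 in R 4.3.3 (quasi-likelihood, robust, TMM scaling, filterByExpr), for conditions with the experiment as a block and for classes with the pool as a block. All classes with at least 5 wells in 3 pools entered 1 class fit. Condition fits that left out a pool, run as alternatives, had no experiment block. P-values were adjusted by Benjamini-Hochberg over all genes tested, with a threshold of 0.05, and members and lists were not adjusted on their own. CPM of members are TMM-scaled. Within-experiment and non-overlap counts and marker sums use CPM without further scaling. The genes set beside these counts had a mean of at least 10 CPM. Most members stood far higher, so these genes were not matched to them for level. The experiment pairs the pools because each array held both conditions, and deviations of pools with the same number correlated across genes (Pearson r = 0.235 over 9652 genes in all used wells, 0.163 over 8945 in endothelial-like and 0.101 over 9066 in mesangial-like sums). The labels do not say more of the animals than the pool, so p-values rest on the spread between pools. The fits shared this spread across genes, so a p-value does not measure a gene's own spread alone. Tested on simulated counts, the endothelial-like diabetes fit recovered 8 of 100 genes changed by 1 on the log2 scale (14160 genes). Of 100 changed by 2 it recovered 76. The class fit of mesangial-like against endothelial-like wells recovered 27 and 99 (12771 genes). The simulation gave every gene the same spread, had no effect of experiment or pool, and changed only genes above a count limit. The simulated class fit left out the other classes, so these rates need not hold for the real fits.

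Alternatives were RLE scaling, scaling by total reads, no filter, DESeq2 1.42.0, a mitochondrial limit of 15%, mitochondrial genes left out, whole parts of the values, wells thinned to 10000 reads, resolution 1.2, clustering with the members, no block and each pool left out; leaving out pools in the interaction was added after seeing the data. Members named were those called, the 3 highest and 3 lowest by log2 fold change in each comparison, and a set of stalk, X-linked, duplicated and well-known members; of other lists, called genes and the extremes in the comparisons described. The members, lists and comparisons were chosen with earlier results of these data known.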

Additional observations from a re-analysis of the deposited data

Results flagged for a closer look

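Wells in which no cell had been imaged, which enter no comparison, held ribosomal protein reads. Their median share of gene reads was 3.10% in 195 wells of control replicate 1, 5.00% in 111 wells of control replicate 2, 3.93% in 184 wells of diabetes replicate 1 and 4.25% in 98 wells of diabetes replicate 2. The used single-cell wells had 3.83%, 4.55%, 3.98% and 4.72%. The median depth of the empty wells was 2212, 33610, 2397 and 32994 reads. In experiment 1 the empty wells had 0.183 and 0.231 gene reads per spike-in read in control and diabetes, against 3.85 and 4.53 in used wells.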

How the results depend on the processing

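No member was called in diabetes against control within endothelial-like or mesangial-like wells, in the interaction, or in mesangial-like against endothelial-like wells under any alternative run, including each pool left out, which for the interaction was chosen after seeing the data. The fits without the replicate block called 0 members in all 3 diabetes comparisons. Over all used wells DESeq2 called 1 member and every other alternative 0. In immune-like against endothelial-like wells, RLE scaling called 10 and DESeq2 16, the other alternatives 2 or 3, and leaving out 1 pool 0 to 2. The shares of all genes called under these settings are not given here. In podocyte-like wells 1 member was called with RLE scaling, with DESeq2, with mitochondrial reads at most 15%, with whole parts and with wells thinned to 10000 reads, and 0 with each pool left out. The cause was not tested. The median share, diabetes minus control over all used wells, averaged 0.161 percentage points over the experiments, 0.182 without mitochondrial reads in the denominator, 0.728 for summed reads, 0.188 with whole parts, 0.176 with pseudogenes and 0.24 with the stricter mitochondrial limit, under which it was -0.0146 in experiment 1 and 0.496 in experiment 2. In mesangial-like wells it averaged 1.46, and 1.6, 1.42, 1.62 and 1.93 with the mitochondrial denominator, summed reads, pseudogenes and the stricter limit. At the limit of 30% the differences of the 2 experiments were so alike (SD 0.00692 over all used wells and 0.0169 in mesangial-like wells) that these moves exceed the SD. Of 582 alternative values of named members, 543 kept direction and call, 19 changed direction without a call on either side, 14 lost a call and 6 gained one. For immune-like wells the stricter mitochondrial limit and thinning could not be fitted, and no diabetes comparison of immune-like wells was run under any setting, since 1 pool held under 5 wells. With 2 pools per condition the fits could miss changes of the size seen here.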

Other observations

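In wells imaged with 2 cells, which enter no comparison, the median share of ribosomal protein reads was 4.17%, 5.94%, 4.35% and 4.30% in control replicates 1 and 2 and diabetes replicates 1 and 2. Wells like smooth muscle and renin cells, 3 to 5 per pool, had 3.34%, 5.13%, 5.46% and 2.57%, and tubular-like wells, 1 to 6 per pool, had 5.22%, 5.42%, 4.38% and 3.59%.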
